A study of Mus musculus with 30 samples.

Results

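Chemokine ligands are small secreted proteins that attract leukocytes, and the RNA of 36 of them was followed in the stem cells of muscle fibres (satellite cells), resting or activated by an injury. The set holds every gene whose symbol in the platform annotation is Ccl or Cxcl followed by a number, together with Ppbp, Pf4, Xcl1 and Cx3cl1. It makes up 36 of the 19938 genes measured by a probe set of their own, and each gene is represented by its brightest probe set over the 30 arrays. All 36 symbols are still current in the reference annotation. Another 6 symbols of the same families (Ccl21a, Ccl21b, Ccl21c, Ccl21d, Ccl27a and Ccl27b) occur only on 7 probe sets that several genes share, and are not counted as members.

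The arrays (Affymetrix Mouse Gene 1.0 ST) form 10 groups of 3. VCAM-sorted cells came from wild-type C57BL6 mice and were VCAM+/CD31-/CD45-/Sca1-. YFP-sorted cells came from Pax7CreER/+;ROSA26eYFP/+ mice injected with Tamoxifen, in which a Cre under control of the Pax7 locus switches on YFP, so that cells that recombined and their progeny are labelled. In young mice (2 to 3 months) both sorts were taken from uninjured muscle (quiescent satellite cells, QSCs) and 36, 60 and 84 h after hindlimb muscle was injured with BaCl2 (activated satellite cells, ASCs). In old mice (22 to 24 months) the VCAM sort alone was taken, from uninjured muscle and at 60 h. All muscles were digested with collagenase and dispase and sorted before RNA was extracted, so the values describe cells after isolation. Nothing in the labels says whether the 3 arrays of a group are separate animals, and the p-values therefore measure the spread between these arrays, which may be technical.

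Chemokines bind G-protein-coupled receptors on leukocytes and draw the cells along a gradient. CXC ligands with an ELR motif act on Cxcr2 and attract neutrophils, the interferon-induced CXC ligands act on Cxcr3 of T cells and natural killer cells, the Ccl2 group acts on Ccr2 of monocytes, and the macrophage inflammatory proteins act on Ccr1 of monocytes and macrophages. Others, such as Ccl19 and Cxcl12, are made constantly in tissues and guide the homing and retention of cells. In injured muscle, neutrophils and then monocytes and macrophages enter before the satellite cells proliferate most.

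The arrays were alike in scale. Their median log2 values ran from 7.03 to 7.16, arrays of a group correlated at 0.996 to 0.9983 across all genes (which are not independent replicates), and the pooled within-group SD of a member had a median of 0.11 and a maximum of 0.19 log2 units. The satellite cell gene Pax7 had group means of 11.68 in young VCAM QSCs and 10.98 in young YFP QSCs, and 8.95 and 10.03 at 36 h. Ptprc, which encodes the CD45 protein that the VCAM sort excluded, had means of 6.24 and 6.24 in the same QSCs, and of 9.05 and 9.21 at 36 h. Pecam1, the gene of CD31 that the same sort excluded, had means of 9.57 and 9.76 in QSCs and 9.59 and 10.98 at 36 h. Vcam1, the sorting marker itself, had group means between 12.17 and 12.88, and Ly6a (Sca1) was not measured by a probe set of its own. Of 16 monocyte and macrophage markers all 16 were higher at 36 h than in QSCs in both sorts. The mean log2 level of that list was 6.40 to 6.50 on the arrays of young VCAM QSCs, 9.99 to 10.07 at 36 h, 8.08 to 8.18 at 60 h and 8.98 to 9.01 at 84 h. In YFP cells it was 6.37 to 6.47 in QSCs, 9.86 to 9.90 at 36 h, 8.82 to 8.92 at 60 h and 9.73 to 9.76 at 84 h. In old VCAM cells it was 6.64 to 6.71 in QSCs and 9.91 to 9.99 at 60 h. Lists of 9 lymphocyte and 5 mast cell markers held 0 genes called by limma in each of 19 comparisons (at most 4 and 3 genes at an unadjusted p under 0.05 in any comparison). On the young VCAM arrays at rest and at 36, 60 and 84 h, the list mean was 9.02 to 9.10, 8.68 to 8.78, 6.96 to 7.01 and 7.36 to 7.40 for endothelial markers and 9.95 to 10.02, 10.97 to 11.01, 9.47 to 9.51 and 9.83 to 9.87 for fibroblast markers. For pericyte and smooth muscle markers it was 10.96 to 11.04, 9.57 to 9.66, 8.16 to 8.20 and 8.66 to 8.70. In YFP cells at these times endothelial markers had list means of 9.04 to 9.19, 9.9995 to 10.02, 7.49 to 7.56 and 7.60 to 7.69. There fibroblast markers had 9.52 to 9.53, 10.41 to 10.43, 8.63 to 8.67 and 9.16 to 9.19. Pericyte and smooth muscle markers had 9.96 to 10.02, 10.01 to 10.02, 8.265 to 8.37 and 8.70 to 8.81. In RNA of a cell population, fewer cells of a type and less RNA per cell cannot be told apart.

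**Figure D1:**
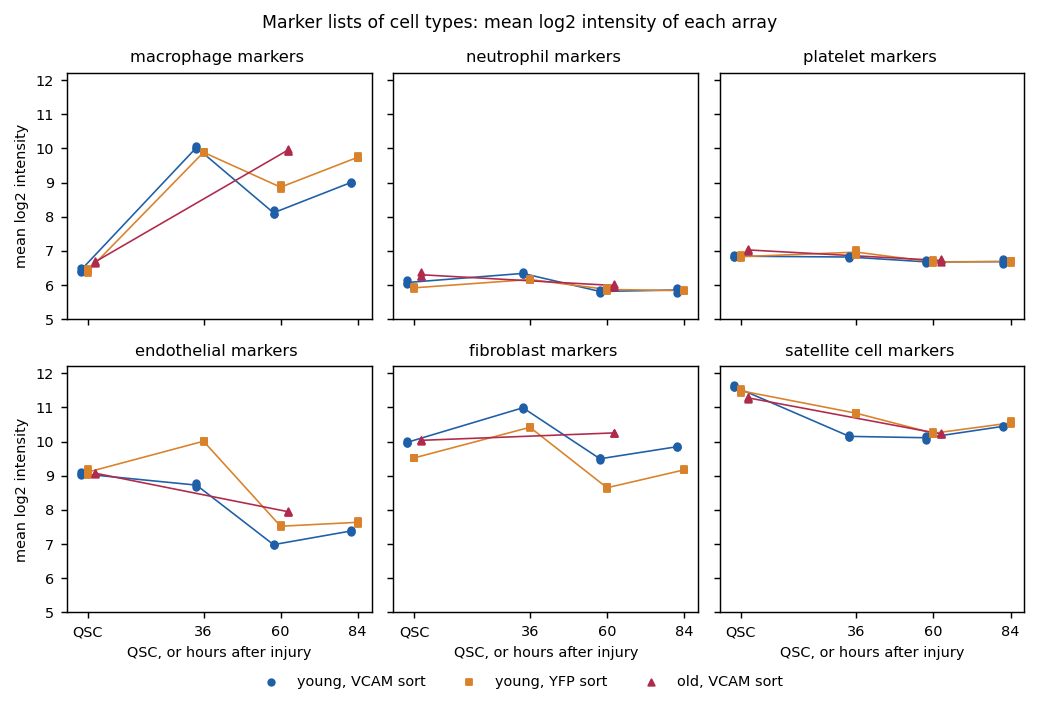
Mean log2 intensity of 6 lists of cell type markers (y axis) in QSCs and at 36, 60 and 84 h after injury (x axis), 1 point per array and lines through the group means, for young VCAM, young YFP and old VCAM cells. The macrophage list reached 9.99 to 10.07 on the young VCAM arrays at 36 h from 6.40 to 6.50 in QSCs, while the platelet and neutrophil lists moved by under 1 log2 unit.

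The ligands that responded to injury mostly peaked at 36 h and had fallen by 60 h, while a smaller group was highest at rest. A call here means an adjusted p under 0.05 over all 19938 genes and a fold of at least 1.5, and the share of all genes called in the same direction is given beside each first count. At 36 h against QSCs in young VCAM cells, 17 of 36 members were higher, against 13.2% of all genes, and 3 were lower, against 9.72%. The median change of the members was 0.42 on the log2 scale and that of all genes -0.01. In young YFP cells 13 were higher, against 10.1% of all genes, and 1 was lower, against 6.14%, with medians of 0.25 and -0.06. The 2 sorts share no array, and 12 members were higher at 36 h in both: Ccl3, Ccl6, Ccl9, Ccl4, Ccl2, Ccl7, Cxcl2, Cxcl3, Cxcl5, Ppbp, Pf4 and Cxcl14.

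Between 36 and 60 h the direction turned. In VCAM cells 23 members fell, against 8.49% of all genes, with a median of -1.10 against 0.00. None of the 36 rose by limma (1 at an unadjusted p under 0.05), where 6.26% of all genes did. In YFP cells 20 members fell, against 8.58%, with a median of -0.82 against 0.04, and again 0 rose by limma (2 at an unadjusted p under 0.05), against 8.73%. Wherever a count of 0 members is given, limma with a trended and robust prior also gave 0. In the VCAM comparison the median over all genes went from 0.00 to 0.11 when arrays were centred on their medians, and the members' calls in it stayed at 0 and 23. Marker lists fell over the same interval. In VCAM cells 16 of 16 macrophage, 8 of 8 endothelial, 6 of 8 fibroblast and 6 of 6 pericyte and smooth muscle markers were lower, with medians of -1.83, -1.79, -1.54 and -1.26. In YFP cells 12, 8, 8 and 6 of them were lower. The part of these cell types in the members' fall was not tested.

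From 60 to 84 h few members moved. 3 rose in VCAM cells (Ccl3, Cxcl16 and Cxcl10), against 3.22% of all genes, and 2 fell (Cxcl5 and Cxcl1), against 0.732%. In YFP cells 5 rose (Cxcl16, Cxcl13, Ccl3, Cxcl10 and Cxcl9), against 4.66%, and 0 fell by limma (7 at an unadjusted p under 0.05), against 2.19%. Over the same interval 11 of 16 macrophage markers rose in VCAM cells and 13 in YFP cells.

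**Figure D2:**
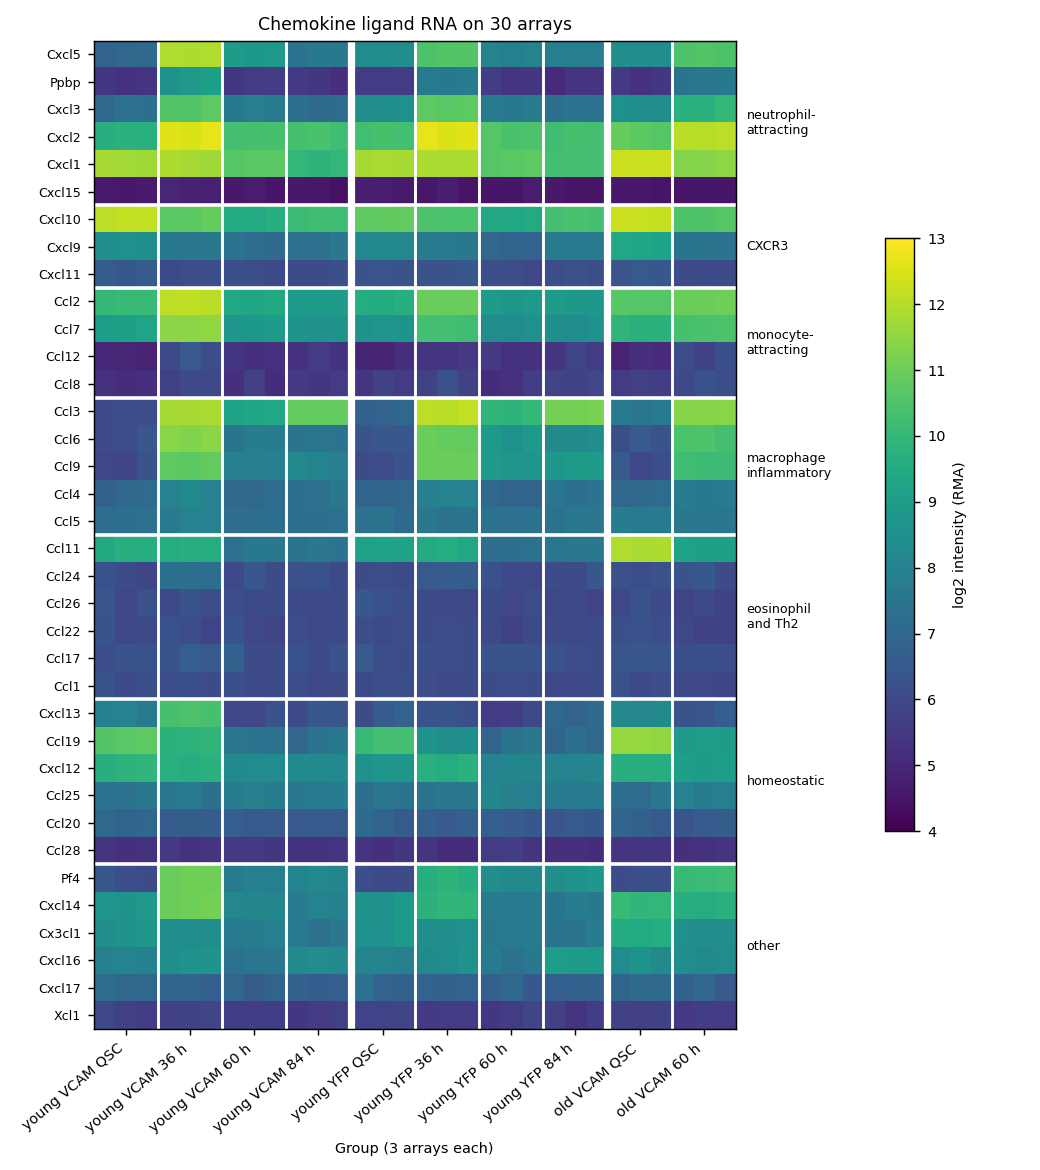
Log2 intensity (colour) of the 36 chemokine ligands (rows, in blocks by role) on each of the 30 arrays (columns, 3 per group). Ccl3, Ccl6, Ccl9 and Pf4 are dark in young QSCs and bright at 36 h, Cxcl5 is dark in young VCAM QSCs but lighter in YFP QSCs, Ccl19 and Ccl11 are brightest in old QSCs, and rows such as Cxcl15 and Ccl28 stay dark throughout.

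The macrophage inflammatory CC ligands held the largest rises. Ccl3 encodes MIP-1α, Ccl4 MIP-1β and Ccl9 MIP-1γ, and Ccl6 is a related mouse ligand. Ccl3 measured 6.10, 6.13 and 6.13 at rest, 11.79, 11.83 and 11.86 at 36 h, 9.21, 9.33 and 9.38 at 60 h and 10.84, 10.84 and 10.83 at 84 h in young VCAM cells. In YFP cells it measured 6.80, 6.81 and 7.05 at rest, 12.11, 12.06 and 12.16 at 36 h, 9.87, 9.86 and 10.001 at 60 h and 11.13, 11.12 and 11.18 at 84 h. No array of one time overlapped another in either sort. The log2 change at 36 h was 5.71 with a standard error of 0.06 in VCAM cells (adjusted p = 4.3e-29) and 5.22 with a standard error of 0.06 in YFP cells (adjusted p = 3.9e-28). The first of these is a 52.2-fold rise. Between 60 and 84 h Ccl3 rose again, by 1.53 in VCAM and 1.23 in YFP cells.

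Ccl6 and Ccl9 also rose steeply and were not called higher at 84 than at 60 h. Ccl6 measured 6.05, 6.14 and 6.43 at rest, 11.40, 11.31 and 11.44 at 36 h, 7.49, 7.77 and 7.78 at 60 h and 7.45, 7.54 and 7.44 at 84 h in young VCAM cells. The YFP arrays for Ccl6 read 6.30, 6.43 and 6.46 at rest, 10.99, 10.88 and 10.84 at 36 h, 8.82, 8.62 and 8.88 at 60 h and 8.23, 8.27 and 8.40 at 84 h. Every Ccl6 array at 60 and 84 h was thus below every 36 h array and above every QSC array of its sort. Ccl9 measured 5.92, 5.89 and 6.30 at rest, 10.78, 10.74 and 10.84 at 36 h, 7.93, 7.85 and 7.93 at 60 h and 8.22, 8.07 and 7.86 at 84 h in young VCAM cells, while its YFP arrays read 6.04, 6.12 and 6.32 at rest, 10.98, 10.94 and 10.95 at 36 h, 8.87, 8.70 and 8.74 at 60 h and 8.75, 8.90 and 8.95 at 84 h. Ccl9 kept the same order, with overlap between 60 and 84 h. The 36 h changes were 5.17 and 4.50 for Ccl6 and 4.75 and 4.80 for Ccl9 (VCAM and YFP, log2). Ccl4 measured 6.78, 7.02 and 7.15 in VCAM QSCs and 7.999, 8.27 and 7.99 at 36 h, and it rose by 1.10 in VCAM and 1.06 in YFP cells. Ccl5, known as RANTES and made mainly by T cells and macrophages, changed by 0.58 in VCAM cells, under the fold threshold, and by 0.18 in YFP cells (adjusted p = 0.077). The macrophage marker list also rose at 36 h and fell by 60 h. By 84 h it rose again, as Ccl3 did, while Ccl6 and Ccl9 were not called higher. The part of that list in the values of these ligands was not tested.

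**Figure D3:**
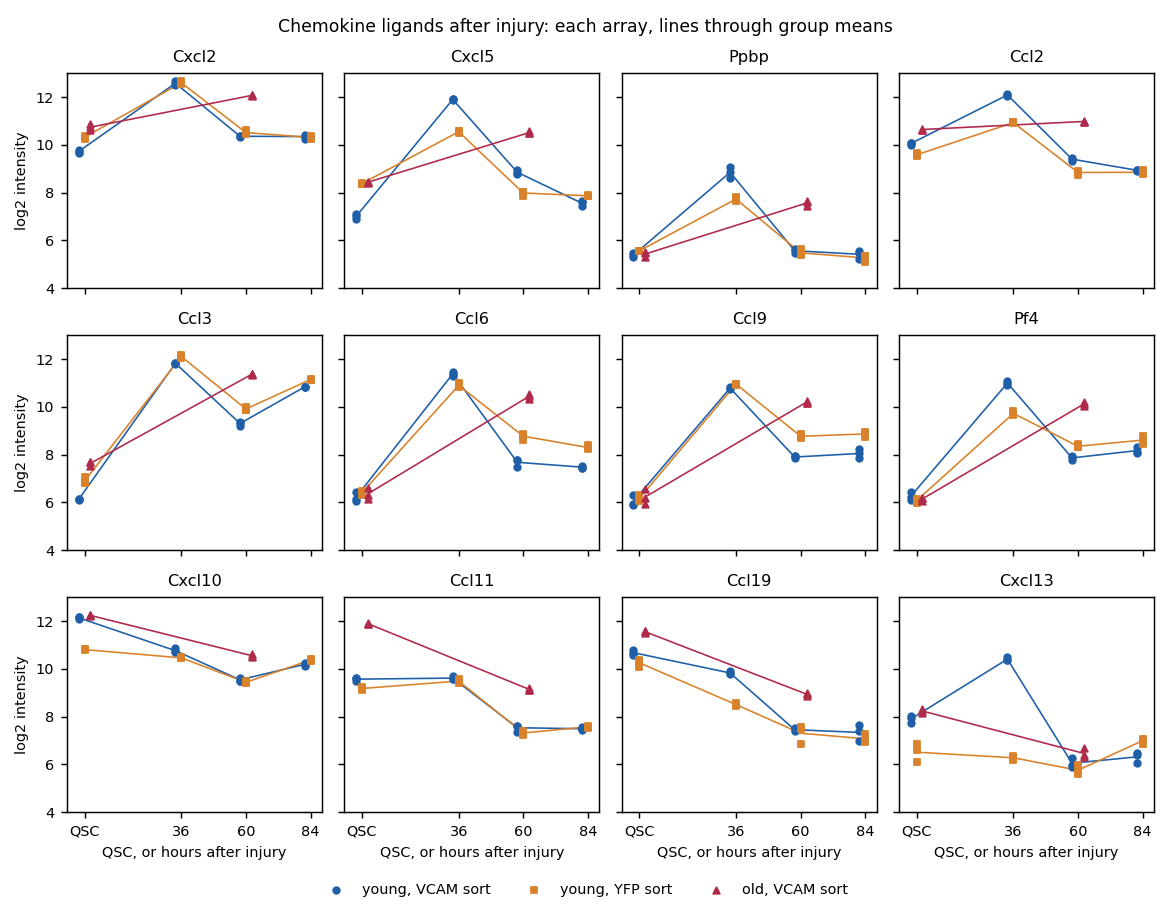
Log2 intensity (y axis) of 12 chemokine ligands in QSCs and at 36, 60 and 84 h after injury (x axis), 1 point per array and lines through group means, for young VCAM, young YFP and old VCAM cells. Ccl3, Ccl6, Ccl9 and Pf4 peak at 36 h in young cells, Ccl3 rises again at 84 h, and Cxcl13 peaks in the VCAM sort alone, at 10.37 to 10.49.

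The starts of Ccl3, Ccl6 and Ccl9 are shown because the genes are neighbours among the members, rose together and rank highest when each member is taken at the smaller of its rises in the VCAM and YFP sorts. RefSeq windows from 250 bases before to 50 bases after the transcription start (GRCm38.p6, 5′ to 3′ on the strand of the gene) were found for 25 of the 36 members, in 26 windows. The window of Ccl3 is chr11:83649329-83649628, that of Ccl9 chr11:83578587-83578886 and that of Ccl6 chr11:83593038-83593337, all on the minus strand. Capitals mark matches on either strand to any of 7 motifs: the NF-κB consensus, AP-1 (TGANTCA), C/EBP (TTGCNNAA), PU.1 (GAGGAA), IRF (TTTCNNTTTC), GAS (TTCNNNGAA) and the TATA box (TATAAA).
Ccl3: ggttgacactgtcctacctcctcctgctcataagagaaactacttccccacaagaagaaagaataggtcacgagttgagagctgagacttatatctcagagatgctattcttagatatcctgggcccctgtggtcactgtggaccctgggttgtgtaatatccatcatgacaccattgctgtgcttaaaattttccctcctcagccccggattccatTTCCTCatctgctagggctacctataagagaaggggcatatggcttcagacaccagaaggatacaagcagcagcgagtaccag
Ccl9: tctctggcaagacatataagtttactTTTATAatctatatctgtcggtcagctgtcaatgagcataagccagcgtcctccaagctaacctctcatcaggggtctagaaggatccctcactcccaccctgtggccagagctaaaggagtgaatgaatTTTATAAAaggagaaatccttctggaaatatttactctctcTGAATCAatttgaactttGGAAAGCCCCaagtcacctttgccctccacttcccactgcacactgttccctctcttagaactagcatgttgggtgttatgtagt
Ccl6: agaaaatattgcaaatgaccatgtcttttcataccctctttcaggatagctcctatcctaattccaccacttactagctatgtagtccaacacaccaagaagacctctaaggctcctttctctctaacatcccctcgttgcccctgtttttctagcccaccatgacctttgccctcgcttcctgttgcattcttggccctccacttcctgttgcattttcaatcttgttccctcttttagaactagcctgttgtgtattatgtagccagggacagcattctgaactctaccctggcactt

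The Ccl3 window held 1 match, to PU.1 on the opposite strand at positions -33 to -28 from the start, and the Ccl6 window held none of these letters. Ccl9 held an NF-κB match at -35 to -26, an AP-1 match at -53 to -47 and TATA matches at -224 to -219, -94 to -89 and -92 to -87, the last pair of which overlap. The 3 windows therefore share no motif among those searched. Over all 26 windows of members, the NF-κB consensus occurred in 7 (26.9%, against 8.46% of all 32851 promoter windows), the TATA box in 10 (38.5% against 13.6%) and AP-1 in 5 (19.2% against 7.81%). PU.1 occurred in 8 (30.8% against 28.3%), IRF in 3 (11.5% against 3.44%), C/EBP in 2 (7.69% against 10.8%) and GAS in 2 (7.69% against 8.3%). Motifs can overlap and a match describes letters, not a site.

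All 4 monocyte-attracting CC ligands rose at 36 h in VCAM cells, and 2 of them in YFP cells. Ccl2 encodes MCP-1, the main ligand of Ccr2. It measured 9.995, 10.09 and 10.06 at rest, 12.10, 12.12 and 12.04 at 36 h, 9.41, 9.34 and 9.45 at 60 h and 8.92, 8.96 and 8.93 at 84 h in young VCAM cells. In YFP cells the arrays read 9.57, 9.54 and 9.64 at rest, 10.94, 10.92 and 10.94 at 36 h, 8.90, 8.75 and 8.88 at 60 h and 8.96, 8.80 and 8.79 at 84 h. Unlike Ccl3, Ccl6 and Ccl9, Ccl2 lay below QSCs at 60 and 84 h in both sorts, by 0.65 and 1.11 in VCAM cells and 0.74 and 0.73 in YFP cells.

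Ccl7, or MCP-3, measured 9.01, 9.13 and 9.24 at rest, 11.45, 11.44 and 11.52 at 36 h, 8.71, 8.78 and 8.98 at 60 h and 8.65, 8.56 and 8.63 at 84 h in young VCAM cells, a 36 h change of 2.35 (adjusted p = 4.8e-21). Its YFP arrays read 8.61, 8.68 and 8.67 at rest, 10.30, 10.30 and 10.25 at 36 h, 8.33, 8.39 and 8.50 at 60 h and 8.48, 8.38 and 8.56 at 84 h, a change of 1.63. At 60 h Ccl7 was called different from rest in neither sort.

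Ccl12 and Ccl8 encode MCP-5 and MCP-2. Ccl12 measured 5.03, 4.96 and 4.85 in young VCAM QSCs and 5.98, 6.50 and 6.14 at 36 h. Ccl8 measured 5.28, 5.18 and 5.21 in young VCAM QSCs and 5.69, 5.97 and 5.98 at 36 h. Both rose in this sort without overlap, at low levels. The Ccl8 group means of 5.22 and 5.88 lay under 5.99, the 25th percentile of all genes. Those of Ccl12 were 4.94 and 6.21. In YFP cells neither was called at 36 h, with changes of 0.40 for Ccl12 and 0.35 for Ccl8. The difference between the sorts in the response passed the test for Ccl12 (-0.86, adjusted p = 0.00067) but not for Ccl8 (-0.31, adjusted p = 0.24).

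Among the neutrophil-attracting CXC ligands 4 of 6 rose at 36 h in each sort, Cxcl5, Ppbp, Cxcl3 and Cxcl2, and 5 of 6 fell by 60 h. Cxcl5, or LIX, measured 6.88, 7.01 and 7.10 at rest, 11.91, 11.88 and 11.91 at 36 h, 8.93, 8.79 and 8.83 at 60 h and 7.44, 7.64 and 7.59 at 84 h in young VCAM cells. In YFP cells it measured 8.34, 8.36 and 8.42 at rest, 10.48, 10.58 and 10.59 at 36 h, 8.04, 7.87 and 8.03 at 60 h and 7.89, 7.85 and 7.85 at 84 h. The peak was higher and the starting level lower in the VCAM sort, without overlap in either case. Cxcl2, or MIP-2, measured 9.65, 9.80 and 9.71 at rest, 12.56, 12.50 and 12.67 at 36 h, 10.32, 10.38 and 10.38 at 60 h and 10.39, 10.41 and 10.24 at 84 h in young VCAM cells. In the YFP sort it read 10.26, 10.38 and 10.31 at rest, 12.66, 12.54 and 12.60 at 36 h, 10.61, 10.43 and 10.49 at 60 h and 10.24, 10.38 and 10.31 at 84 h. The 36 h level was about the same in both sorts and stood apart from all other times. In VCAM cells Cxcl2 was still 0.64 above rest at 60 h and 0.62 at 84 h, values that were 0.47 and 0.49 and not called after quantile normalization.

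Cxcl3, a close relative of Cxcl2, measured 7.07, 7.38 and 7.29 at rest, 10.61, 10.56 and 10.76 at 36 h, 7.66, 7.85 and 7.67 at 60 h and 7.33, 7.07 and 7.18 at 84 h in young VCAM cells. In YFP cells it measured 8.47, 8.47 and 8.52 at rest, 10.77, 10.71 and 10.76 at 36 h, 7.72, 7.63 and 7.77 at 60 h and 7.31, 7.42 and 7.39 at 84 h. At 60 h it was thus below rest in the YFP sort (a change of -0.78, adjusted p = 2.6e-09). Ppbp encodes the precursor of a ligand stored in platelet granules. It measured 5.47, 5.28 and 5.37 at rest, 8.60, 8.88 and 9.07 at 36 h, 5.45, 5.59 and 5.65 at 60 h and 5.54, 5.47 and 5.23 at 84 h in young VCAM cells. YFP cells gave Ppbp values of 5.55, 5.55 and 5.57 at rest, 7.72, 7.65 and 7.82 at 36 h, 5.62, 5.39 and 5.42 at 60 h and 5.10, 5.34 and 5.34 at 84 h. The rise was thus seen at 36 h alone, and by 60 h Ppbp was within 0.19 log2 units of rest in VCAM and 0.08 in YFP cells.

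Pf4, another platelet ligand, stayed above rest at the later times, as Ccl6 and Ccl9 did. It measured 6.43, 6.21 and 6.10 at rest, 10.91, 11.07 and 11.01 at 36 h, 7.76, 7.94 and 7.89 at 60 h and 8.07, 8.32 and 8.11 at 84 h in young VCAM cells. Its YFP arrays read 6.13, 5.99 and 6.09 at rest, 9.66, 9.84 and 9.68 at 36 h, 8.45, 8.30 and 8.30 at 60 h and 8.45, 8.58 and 8.79 at 84 h, so that at 84 h it was still 1.92 and 2.54 log2 units above QSCs in the 2 sorts. Of 6 platelet and megakaryocyte markers outside the set Itgb3, an integrin that other cells also carry, was the 1 called at 36 h (0.65 and 1.07). The mean of that list was 6.82 to 6.89 on the VCAM QSC arrays and 6.80 to 6.85 at 36 h. The glycoprotein gene Gp9 changed by -0.34 and Itga2b by 0.12, and neither was called. The macrophage list rose beside Ppbp and Pf4 too, and the part of either cell type was not tested.

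Cxcl1 (KC) did not follow this pattern. Its level was 11.76 ± 0.04 (SD, n = 3) in young VCAM QSCs and 11.79 ± 0.08 at 36 h, a change of 0.03 (adjusted p = 0.6), and the YFP change was 0.04. It fell by 1.83 in VCAM and 1.53 in YFP cells between QSCs and 84 h. Cxcl15, made in lung epithelium, stayed between 4.41 and 4.96 on all 30 arrays. Of 12 neutrophil markers 3 were higher at 36 h in VCAM cells (Mmp9, Ngp and Mmp8, by at most 0.70), and 4 in YFP cells. The mean of that list was 6.02 to 6.14 on VCAM QSC arrays and 6.32 to 6.37 at 36 h.

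**Figure D4:**
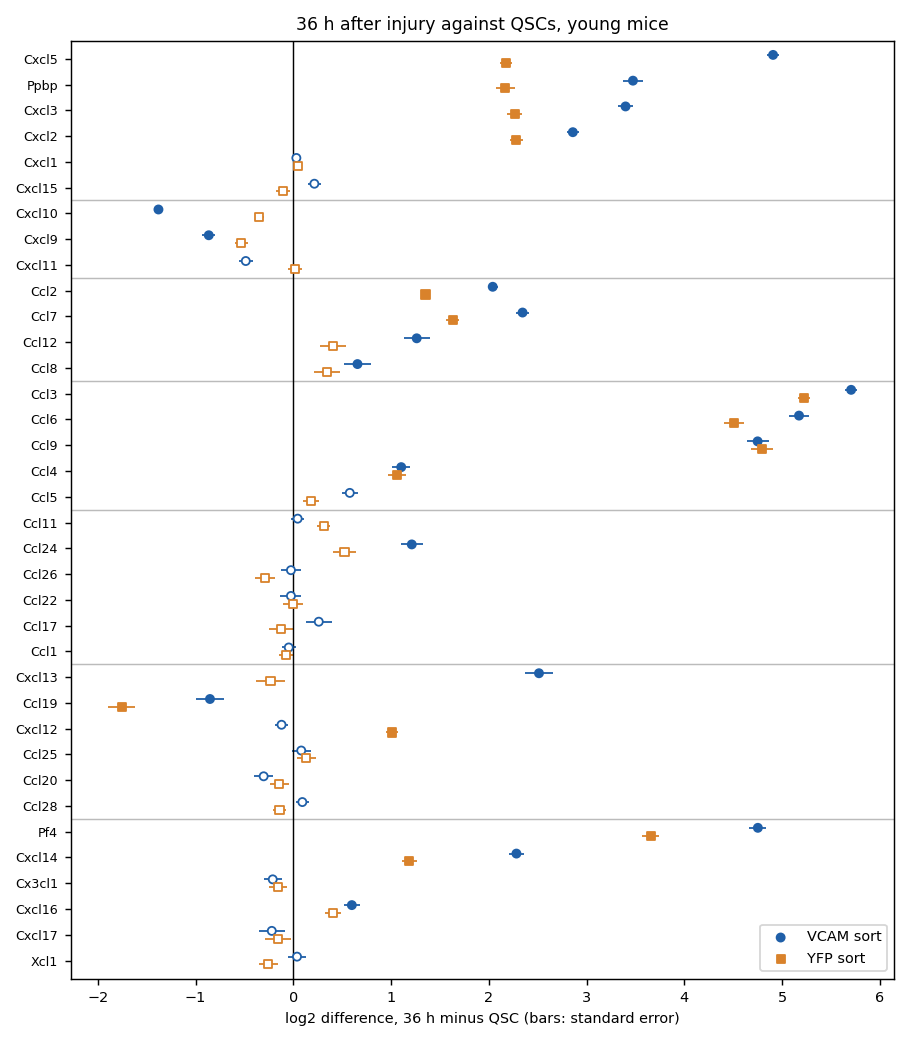
Log2 change (x axis, bars are standard errors) of the 36 chemokine ligands between QSCs and 36 h after injury in young VCAM cells (circles) and young YFP cells (squares), filled where called. Ccl3, Ccl6 and Ccl9 rose by 4.50 to 5.71 in both sorts, and Cxcl13 rose by 2.51 in the VCAM sort only.

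Cxcl9 and Cxcl10, ligands of Cxcr3 that interferon induces, ran the other way and were highest at rest. Cxcl10, or IP-10, measured 12.10, 12.17 and 12.16 at rest, 10.70, 10.74 and 10.86 at 36 h, 9.49, 9.51 and 9.64 at 60 h and 10.14, 10.24 and 10.19 at 84 h in young VCAM cells. In YFP cells the arrays read 10.78, 10.82 and 10.83 at rest, 10.49, 10.46 and 10.44 at 36 h, 9.43, 9.40 and 9.49 at 60 h and 10.34, 10.42 and 10.36 at 84 h. The level fell to 60 h in both sorts and then rose, by 0.65 in VCAM and 0.94 in YFP cells. With each array centred on its median, the VCAM rise was 0.56 and no longer reached the fold threshold.

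Cxcl9, also called MIG, measured 8.47, 8.51 and 8.47 at rest, 7.65, 7.57 and 7.64 at 36 h, 7.44, 7.21 and 7.13 at 60 h and 7.36, 7.38 and 7.58 at 84 h in young VCAM cells. In the YFP sort Cxcl9 read 8.18, 8.29 and 8.18 at rest, 7.69, 7.74 and 7.61 at 36 h, 6.96, 6.88 and 6.83 at 60 h and 7.75, 7.70 and 7.66 at 84 h. It too fell to 60 h, and its later rise was called in the YFP sort (0.81) but not in the VCAM sort (0.18). Cxcl11, the third Cxcr3 ligand, had group means between 6.05 and 6.60 and was called in 0 of 19 comparisons by limma (10 at an unadjusted p under 0.05), although its change at 36 h in VCAM cells had an adjusted p of 1.2e-06 (-0.49).

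Of the 6 ligands of eosinophils and T helper 2 cells, Ccl11 and Ccl24 were called in any comparison. Ccl11 (eotaxin), the main attractant of eosinophils, measured 9.48, 9.63 and 9.61 at rest, 9.57, 9.69 and 9.58 at 36 h, 7.37, 7.62 and 7.62 at 60 h and 7.46, 7.58 and 7.44 at 84 h in young VCAM cells. In YFP cells the arrays read 9.14, 9.24 and 9.17 at rest, 9.50, 9.57 and 9.40 at 36 h, 7.21, 7.33 and 7.41 at 60 h and 7.54, 7.60 and 7.59 at 84 h. Its changes to 36 h, 0.04 and 0.31, were not called, and it then fell by 2.08 and 2.17 with no overlap. Ccl24 (eotaxin-2) rose at 36 h in VCAM cells, from 6.26, 6.07 and 5.90 to 7.30, 7.30 and 7.26. Its YFP arrays read 6.05, 6.17 and 6.01 and 6.51, 6.64 and 6.65, a change of 0.52 under the fold threshold. Ccl1, Ccl17, Ccl22 and Ccl26 had group means between 5.80 and 6.51 and were called in 0 of 19 comparisons by limma (2 to 5 each at an unadjusted p under 0.05).

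Among the 6 homeostatic ligands Ccl19, Cxcl12 and Cxcl13 moved. Ccl19, a ligand of Ccr7 that guides T cells and dendritic cells in lymph nodes, had the largest fall of any member between QSCs and 60 or 84 h in young cells of both sorts. It measured 10.58, 10.69 and 10.78 at rest, 9.77, 9.83 and 9.90 at 36 h, 7.53, 7.43 and 7.41 at 60 h and 6.97, 7.42 and 7.63 at 84 h in young VCAM cells. The YFP arrays read 10.08, 10.36 and 10.34 at rest, 8.57, 8.46 and 8.49 at 36 h, 6.87, 7.46 and 7.58 at 60 h and 6.94, 7.28 and 6.998 at 84 h. By 60 h Ccl19 fell by 3.23 in VCAM cells and fell by 2.95 in YFP cells. Its symbol stands on 5 probe sets, and with their mean in place of the brightest its named changes kept their calls.

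Cxcl12 (SDF-1), the ligand of Cxcr4, separated the sorts at rest. Young VCAM QSCs gave 9.69, 9.84 and 9.92 and young YFP QSCs 8.54, 8.71 and 8.75. At 36 h the sorts overlapped, with 9.72, 9.62 and 9.75 in VCAM and 9.72, 9.56 and 9.75 in YFP cells, and at 60 h they read 8.25, 8.35 and 8.32 and 7.99, 8.14 and 8.12.

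Cxcl13, the B cell attractant that acts on Cxcr5, peaked in one sort. VCAM cells gave 7.96, 8.01 and 7.73 at rest, 10.37, 10.49 and 10.37 at 36 h, 5.96, 5.90 and 6.28 at 60 h and 6.06, 6.48 and 6.40 at 84 h. YFP cells gave 6.08, 6.62 and 6.83 at rest, 6.28, 6.35 and 6.20 at 36 h, 5.62, 5.66 and 5.98 at 60 h and 7.04, 6.87 and 7.07 at 84 h. The difference between the sorts at 36 h was -4.13 (adjusted p = 1.4e-17). Ccl20, Ccl25 and Ccl28 were called in 0 of 19 comparisons by limma (6, 8 and 10 at an unadjusted p under 0.05), with group means of 6.47 to 6.95, 7.33 to 7.97 and 5.21 to 5.53.

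The remaining ligands include the membrane-bound pair Cx3cl1 and Cxcl16. Cx3cl1 (fractalkine) measured 8.48, 8.63 and 8.75 at rest, 8.42, 8.38 and 8.42 at 36 h, 7.68, 7.81 and 7.92 at 60 h and 7.66, 7.35 and 7.57 at 84 h in young VCAM cells, a fall from rest by 1.09. In YFP cells it fell by 1.07 to 84 h. Cxcl16 measured 7.93, 8.06 and 7.95 at rest, 8.48, 8.59 and 8.66 at 36 h, 7.38, 7.54 and 7.53 at 60 h and 8.32, 8.41 and 8.32 at 84 h in young VCAM cells. Its YFP arrays read 8.04, 8.09 and 7.92 at rest, 8.32, 8.37 and 8.57 at 36 h, 7.72, 7.40 and 7.64 at 60 h and 9.01, 8.96 and 8.86 at 84 h, with its highest group mean at 84 h.

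Cxcl14, which attracts monocytes and dendritic cells, rose from 8.71, 8.66 and 8.88 to 10.96, 11.01 and 11.12 in VCAM cells and from 8.63, 8.61 and 8.83 to 9.80, 9.94 and 9.89 in YFP cells, and was below rest in both at 60 h. Xcl1, Ccl28 and Cxcl15 stayed under 5.99, the 25th percentile of all genes, in every group, and were called in 0 of 19 comparisons by limma (5, 10 and 5 at an unadjusted p under 0.05), as was Cxcl17 (1).

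Against the resting level, the later times left a mixed picture. At 60 h 6 members were higher than QSCs in VCAM cells (Ccl3, Ccl9, Cxcl5, Pf4, Ccl6 and Cxcl2), against 16.6% of all genes, and 10 were lower, against 12.6%. In YFP cells the counts were 4 (Ccl3, Ccl9, Ccl6 and Pf4), against 17.2%, and 10, against 12.8%. At 84 h 5 were higher in VCAM cells, against 16.4%, and 10 lower, against 11.2%. In YFP cells at 84 h 6 were higher, against 17%, and 8 lower, against 11.2%. At both times the share of members called higher was near or below that of all genes, and the share called lower was above it.

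The 2 sorts were then compared at each time. Genotype, tamoxifen and sorting rule all differ between them and cannot be told apart. Among QSCs 4 members were higher in the YFP sort (Cxcl5, Cxcl3, Ccl3 and Cxcl2), against 1.82% of all genes, and 3 were lower (Cxcl13, Cxcl10 and Cxcl12), against 1.74%. Cxcl5 was 1.38 and Cxcl3 1.24 log2 units higher, Cxcl10 1.33 lower. The Cxcl2 difference of 0.60 lay at the fold threshold. It was 0.56 without VCAM QSC array 1 or YFP QSC array 2 and 0.51 after quantile normalization, and then not called. Of 6 pericyte and smooth muscle markers 3 were lower in YFP QSCs (list means of 9.96 to 10.02 against 10.96 to 11.04). The fibroblast list mean was 9.52 to 9.53 in YFP and 9.95 to 10.02 in VCAM QSCs. Of its 8 markers 7 were lower and 0 higher at an unadjusted p under 0.05. The part of these cell types in the differences was not tested.

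At 36 h 10 members were lower in the YFP sort, against 2.78% of all genes, and 0 were higher by limma (2 at an unadjusted p under 0.05), against 2.49%. After Cxcl13 the largest differences were those of Cxcl5 (-1.35), Ccl19 (-1.32), Pf4 (-1.27), Ccl7 (-1.19) and Ccl2 (-1.16). Ccl3 and Ccl9, by contrast, had differences of 0.28 and 0.17, not called. Of 16 macrophage markers 2 were called lower in the YFP sort at this time. Of 8 fibroblast markers 4 were lower and 1 higher, and the list mean was 10.97 to 11.01 on VCAM and 10.41 to 10.43 on YFP arrays. Of 8 endothelial markers 8 were higher, with list means of 8.68 to 8.78 and 9.999 to 10.02, and of 6 pericyte and smooth muscle markers 1 was higher (9.57 to 9.66 and 10.01 to 10.02). The part of these cell types in the differences was not tested.

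Taking the resting level into account, the 36 h response differed between sorts for 14 members. The change in YFP minus that in VCAM cells was above 0 for 2, Cxcl12 and Cxcl10 (against 4.61% of all genes), and below 0 for 12 (against 4.47%), with differences of -2.75 for Cxcl13, -2.73 for Cxcl5 and -1.30 for Ppbp. Cxcl12 changed by -0.12 in the VCAM sort (adjusted p = 0.11) and rose by 1.01 in the YFP sort, from its lower start. Cxcl10 changed by -1.38 in VCAM and -0.35 in YFP cells, the latter not called, whereas Ccl19 fell more in the YFP sort (-1.75 against -0.85). The other members below 0 rose in VCAM cells and rose less in YFP cells, or, for Cxcl13 (-0.23), Ccl12 (0.40) and Ccl24 (0.52), were not called there.

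At the later times Ccl6 and Ccl9 were higher in the YFP sort. At 60 h 3 members were higher there, Ccl6 by 1.09, Ccl9 by 0.87 and Ccl3 by 0.61, against 0.757% of all genes. Cxcl5 was lower, by 0.87, against 0.557%. Ccl3 lost its call without VCAM 60 h array 1 (0.56) or YFP 60 h array 3 (0.56) and with each array centred on its median (0.58). Without VCAM 60 h array 2 the count lower was 2. At 84 h 4 were higher, Ccl6, Ccl9, Cxcl13 and Cxcl16, against 1.21%, and 0 lower by limma (3 at an unadjusted p under 0.05), against 0.446%. Without VCAM 84 h array 1 Cxcl13 (0.55) and Cxcl16 (0.57) were not called and the count higher was 2. Cxcl16 also lost its call without VCAM 84 h array 3 (0.58), YFP 84 h array 1 (0.56) or array 2 (0.58), and after quantile normalization (0.57). Of 16 macrophage markers 12 were higher in the YFP sort at 60 h and 11 at 84 h. Of 8 fibroblast markers 4 were lower at 60 h (8.63 to 8.67 in YFP against 9.47 to 9.51 in VCAM cells) and 4 at 84 h (9.16 to 9.19 against 9.83 to 9.87). Of 8 endothelial markers 4 were higher at 60 h (7.49 to 7.56 against 6.96 to 7.01). The part of these cell types in the differences was not tested.

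Members were higher in old than in young cells, both at rest and at 60 h. Among VCAM QSCs 11 of 36 members were higher in old than in young mice, against 3.04% of all genes, and 0 were lower by limma (1 at an unadjusted p under 0.05), against 4.7%. The median member changed by 0.16 and the median gene by 0.02. At 60 h 21 were higher, against 4.75%, and 0 lower by limma (4 at an unadjusted p under 0.05), against 0.657%, with medians of 0.71 and -0.05. With a fold of at least 2 in place of 1.5, the count in QSCs was 6. Both comparisons use young VCAM groups that also enter the time and sort comparisons.

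In old QSCs the largest difference was that of Ccl11. It measured 11.93, 11.87 and 11.90 in old and 9.48, 9.63 and 9.61 in young QSCs, a difference of 2.33 with a standard error of 0.07 (adjusted p = 2.6e-19). Ccl3 measured 7.68, 7.53 and 7.70 in old QSCs, above its young arrays given earlier and above those of young YFP QSCs. Cxcl5 read 8.43, 8.46 and 8.41 in old against 6.88, 7.01 and 7.10 in young VCAM QSCs. Young YFP QSCs, however, had Cxcl5 values of 8.34, 8.36 and 8.42, which overlap those of old VCAM QSCs.

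Cxcl14 and Cxcl3 followed, with 10.05, 9.94 and 9.96 in old and 8.71, 8.66 and 8.88 in young QSCs for Cxcl14 (1.23) and 8.53, 8.48 and 8.38 and 7.07, 7.38 and 7.29 for Cxcl3 (1.22). As for Cxcl5, the Cxcl3 arrays of young YFP QSCs (8.47, 8.47 and 8.52) overlap those of old VCAM QSCs. Cxcl2 was higher by 1.02, Cx3cl1 by 0.92, Ccl19 by 0.88, Cxcl9 by 0.82, Ccl7 by 0.69 and Ccl2 by 0.59. The steep risers Ccl6, Ccl9, Pf4 and Ppbp showed no call at rest (0.14, 0.19, -0.10 and 0.05). Of 16 macrophage markers 1 was called higher in old QSCs (Cd68, 0.97). At an unadjusted p under 0.05, 8 of them were higher and 0 lower. The macrophage list mean was 6.64 to 6.71 on old and 6.40 to 6.50 on young QSC arrays, without overlap. Of 8 endothelial markers 0 were called by limma (4 at an unadjusted p under 0.05). Of 6 pericyte and smooth muscle markers 4 were lower in old QSCs (list means of 10.33 to 10.35 in old and 10.96 to 11.04 in young), and of 9 satellite cell markers 2 were lower (11.26 to 11.31 and 11.59 to 11.65). Of 8 fibroblast markers 3 were higher (Lum, Pdgfra and Dcn) and 3 lower (Col3a1, Dpt and Col1a1), and the list mean was 10.03 to 10.05 on old and 9.95 to 10.02 on young QSC arrays. The part of these cell types in the differences was not tested.

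At 60 h the order changed, and those same 4 genes were among the largest differences. Ccl6 measured 10.46, 10.54 and 10.33 in old and 7.49, 7.77 and 7.78 in young 60 h cells, a difference of 2.77 with a standard error of 0.10 (adjusted p = 1.5e-17). Ccl9 measured 10.25, 10.18 and 10.17 in old and 7.93, 7.85 and 7.93 in young cells (2.30). Its old and young arrays did not overlap, nor did those of the platelet ligands. Pf4 measured 10.05, 10.12 and 10.19 in old against 7.76, 7.94 and 7.89 in young cells, and Ppbp 7.45, 7.60 and 7.63 against 5.45, 5.59 and 5.65. Ccl3 measured 11.35, 11.36 and 11.39 in old 60 h cells and Cxcl3 9.75, 9.73 and 9.996, differences of 2.06 and 2.10.

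By role, 4 of 5 macrophage inflammatory, 4 of 4 monocyte-attracting and 5 of 6 neutrophil-attracting ligands were higher in old cells at 60 h, with medians of 2.06, 1.17 and 1.69. Among these, Ccl12 and Ccl8 were low, with group means of 5.32 and 5.37 in young and 6.04 and 6.14 in old cells. 1 of 3 Cxcr3 ligands (Cxcl10, 1.01), 1 of 6 eosinophil and T helper 2 ligands (Ccl11, 1.61), 2 of 6 homeostatic ligands (Ccl19 and Cxcl12) and 4 of the 6 others (Pf4, Cxcl14, Cxcl16 and Cx3cl1) were higher too. Over these arrays the macrophage list also differed. All 16 of its genes were higher in old cells at 60 h (median 1.72), as were 6 of 8 endothelial markers (list means of 7.93 to 7.97 in old and 6.96 to 7.01 in young cells) and 4 of 8 fibroblast markers (10.25 to 10.26 and 9.47 to 9.51). Of 6 pericyte and smooth muscle markers 3 were higher (8.84 to 8.89 and 8.16 to 8.20). The part of these cell types in the differences was not tested.

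**Figure D5:**
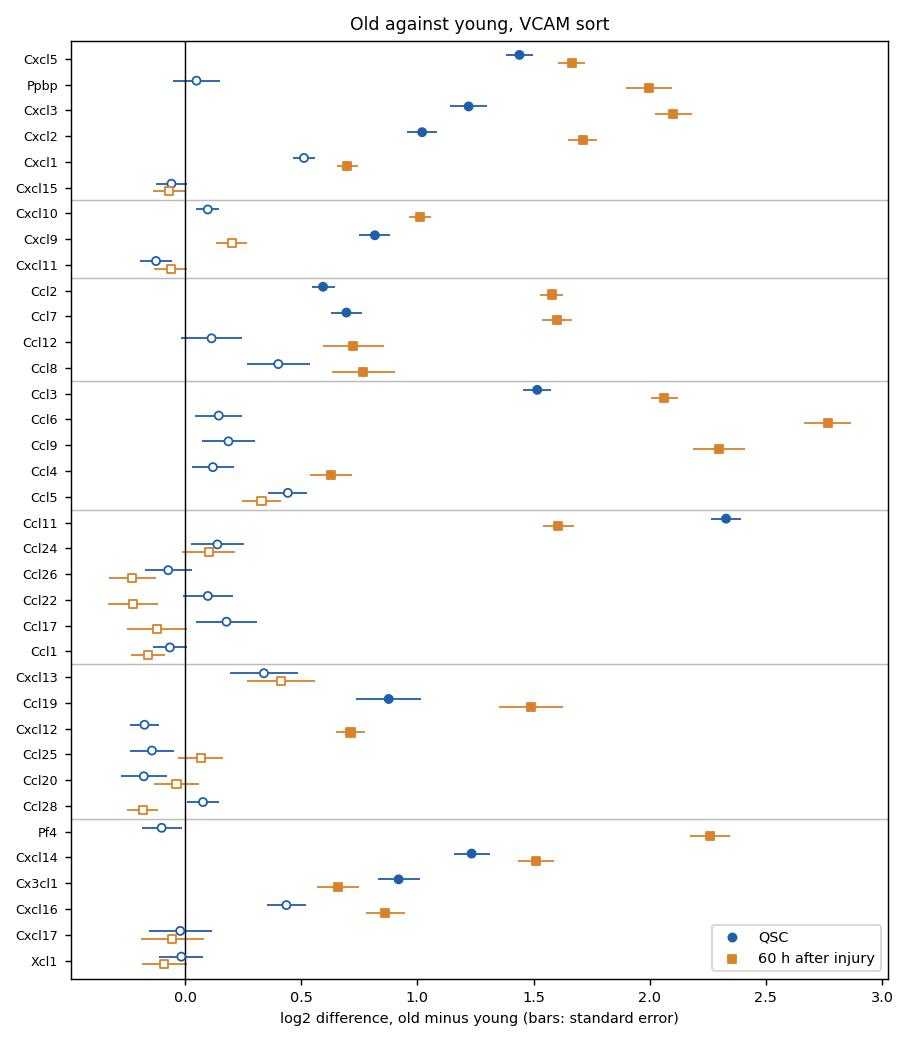
Log2 difference between old and young VCAM cells (x axis, bars are standard errors) for the 36 chemokine ligands in QSCs (circles) and at 60 h after injury (squares), filled where called. Ccl6, Ccl9, Pf4 and Ppbp lie near 0 in QSCs and between 2.00 and 2.77 at 60 h, while Ccl11 is the largest in QSCs at 2.33.

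Old cells at 60 h compared with their own QSCs had 11 members higher, against 17.8% of all genes, and 8 lower, against 11.7%. Among the higher were Ccl6 (4.09), Pf4 (3.98), Ccl9 (3.98) and Ccl3 (3.73). The same genes had changed by 1.47, 1.62, 1.86 and 3.19 in young cells. The difference of the 60 h response was called for 14 members, the change in old minus that in young cells being above 0 for 12 (against 6.81% of all genes) and below 0 for 2, Ccl11 and Cxcl9 (against 2.16%), which fell more in old cells. Cxcl10, Cxcl12 and Ccl19, among the 12, fell less in old cells. The group means of Ccl2 and Ccl7 fell in young and rose in old cells. From rest to 60 h Ccl2 went from 10.05 to 9.40 in young and from 10.64 to 10.98 in old cells. Ccl7 went from 9.13 to 8.83 and from 9.82 to 10.43. The difference was 2.62 for Ccl6 (adjusted p = 1.4e-13), 2.36 for Pf4, 2.11 for Ccl9 and 1.95 for Ppbp. Ccl3 (0.55) and Cxcl5 (0.23) did not reach the fold threshold. The Cxcl9 difference of -0.62 was -0.53 without young 60 h array 1 and -0.57 without old QSC array 1, and then not called. Cells of old mice at 36 and 84 h were not analysed here.

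Receptor genes were called in both directions. Of 22 chemokine receptor genes 2 were higher at 36 h in VCAM cells, against 13.2% of all genes, and 2 lower, against 9.72%. In YFP cells 4 were higher, against 10.1%, and 1 lower, against 6.14%. Ccr1, which binds the macrophage inflammatory ligands, rose from 4.38 ± 0.11 to 7.64 ± 0.02 (SD, n = 3) in VCAM cells and from 4.50 ± 0.27 to 8.38 ± 0.02 in YFP cells. Ccr2, the monocyte receptor for Ccl2, rose from 5.07 ± 0.04 to 7.52 ± 0.24 in VCAM cells and by 1.69 in YFP cells. Both are known from monocytes and macrophages, whose marker list rose at the same time, and its part in these values was not tested.

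Cxcr4, the receptor of Cxcl12 found on satellite cells, ran the other way in VCAM cells. It went from 12.73 ± 0.02 in VCAM QSCs to 12.12 ± 0.04 at 36 h and 11.41 ± 0.05 at 60 h. The log2 change at 36 h, -0.61, lay near the fold threshold. Ackr3, which binds and clears Cxcl12, fell by 1.05 in VCAM and 0.97 in YFP cells at 36 h. In old against young QSCs, 0 receptors were called by limma (3 at an unadjusted p under 0.05). Of all genes 3.04% were called higher and 4.7% lower there. At 60 h 3 receptors were higher in old cells, against 4.75% of all genes: Ccr1 by 2.91, Ccr2 by 1.79 and the decoy-like Ccrl2 by 1.34.

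Many chemokine genes are induced through NF-κB, and a list of 19 genes was followed. It holds genes of that pathway, the cytokines Il1a, Il1b, Tnf and Il6, and the transcription factor genes Cebpb and Cebpd. At 36 h 5 rose in VCAM cells, against 13.2% of all genes, and 8 fell, against 9.72%. The largest rises were those of the cytokines Il1b (3.61) and Il1a (2.94), and the largest falls those of Cebpd and Cebpb, transcription factors of the acute phase response, by 2.64 and 1.59. In YFP cells 5 rose (against 10.1% of all genes), Il1a by 4.66 and Il1b by 4.65, and 7 fell (against 6.14%). In old cells at 60 h 13 of 19 were higher than in young cells, against 4.75% of all genes. By limma 0 were lower (0 at an unadjusted p under 0.05), against 0.657%. The largest of these differences were 2.79 for Il1b, 2.05 for Il1a, 1.97 for Il6 and 1.55 for Tnf. In QSCs 2 were higher in old cells (against 3.04% of all genes), Il6 by 1.46 and Nfkb2 by 0.66.

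The members sit in runs of neighbouring genes, and not all genes of a run changed together. In the reference annotation the 36 genes fall into 16 runs whose members lie within 1000000 bases of the next. The run Ccl5, Ccl9, Ccl6, Ccl3 and Ccl4 on chromosome 11 has no other protein-coding gene inside it. Its members changed by 0.58, 4.75, 5.17, 5.71 and 1.10 at 36 h in VCAM cells, in that order along the chromosome. In the run Ccl2, Ccl7, Ccl11, Ccl12, Ccl8 and Ccl1 on the same chromosome, 4 of 6 rose, while Ccl11, between Ccl7 and Ccl12, changed by 0.04 and Ccl1 at the end by -0.05. The run Cxcl5, Ppbp, Pf4, Cxcl3, Cxcl15, Cxcl1 and Cxcl2 on chromosome 5 had 5 of 7 rise in each sort, all but Cxcl15 and Cxcl1. A separate run on chromosome 5, Cxcl9, Cxcl10 and Cxcl11, had no member called higher at 36 h, and 2 of its 3 genes fell in VCAM cells.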

How the data were processed

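RNA of sorted satellite cells was hybridised to 30 arrays (Affymetrix Mouse Gene 1.0 ST). As stated per the labels and methods, the authors normalized the arrays by RMA in Affymetrix Expression Console and deposited log2 values (versions not given in the sources used here). RMA fits quantiles and probe effects over the whole set, and small differences at low intensity can be compressed. Of 35556 probe sets 21789 carried 1 gene symbol in the platform annotation, 1621 several and 12146 none, and the brightest single-symbol probe set per gene left 19938 genes. 0 columns belonged to other samples.

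Groups were taken from the labels. All arrays were fitted together with limma 3.58.1 (lmFit and eBayes, R 4.3.3, 20 residual degrees of freedom), and 19 contrasts were tested two-sided, with Benjamini-Hochberg adjusted p under 0.05 over all genes and a fold of at least 1.5 as a call. Standard errors are from that fit. The script was tested on simulated data. The members and lists were chosen with earlier results of these data known. Array values are given for up to 4 members of each role with the largest range of group means, and the called members named in a comparison are those with the largest non-overlapping changes, up to 6 in each direction. Members named beyond that, such as all those of a short count, were chosen after their values were seen. Same-numbered arrays of different groups deviated together little on average (mean correlation 0.04, against -0.02 for other numbers). Of 135 such pairs, however, 27 exceeded 0.1. The numbers were taken not to pair arrays, and a block on them was fitted as an alternative. Motifs were searched on both strands of RefSeq promoter windows (GRCm38.p6). Alternatives covered scaling, thresholds, the prior, dim genes, probe set choice, the samples fitted, the replicate block and each array left out. The block entered the model as a fixed term for the replicate number. The package statmod 1.5.0 was loaded beside limma.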

Additional observations from a re-analysis of the deposited data

Results flagged for a closer look

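The values below are differences between 2 responses to injury on the log2 scale, each tested in limma as an interaction contrast over all 19938 genes and called at an adjusted p under 0.05 and a fold of at least 1.5. All are given without explanation.

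The change from QSCs to 60 h in old VCAM cells minus that in young VCAM cells was above 0 for 12 members. The difference was 2.62 for Ccl6, 2.36 for Pf4, 2.11 for Ccl9, 1.95 for Ppbp, 0.98 for Ccl2 and 0.91 for Ccl7. It was 0.91 for Cxcl10, 0.89 for Cxcl12, 0.88 for Cxcl3, 0.69 for Cxcl2, 0.61 for Ccl19 and 0.61 for Ccl12. For Cxcl10, Cxcl12 and Ccl19 it marks a smaller fall in old cells. The group means of Ccl2 and Ccl7 fell in young cells and rose in old cells. Ccl11 (-0.72) and Cxcl9 (-0.62) fell more in old cells.

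The change from QSCs to 36 h in YFP cells minus that in VCAM cells was above 0 for Cxcl12 (1.13) and for Cxcl10 (1.03), which fell in VCAM cells and was not called in YFP cells. It was below 0 for Cxcl13 (-2.75), Cxcl5 (-2.73), Ppbp (-1.30), Cxcl3 (-1.14), Pf4 (-1.10) and Cxcl14 (-1.10). It was also below 0 for Ccl19 (-0.90), which fell more in YFP cells, and for Ccl12 (-0.86), Ccl7 (-0.72), Ccl24 (-0.69), Ccl2 (-0.69) and Ccl6 (-0.67). Groups of 3 arrays are too small for a test of single arrays that stand apart.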

How the results depend on the processing

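With the replicate number as a replicate block, none of 38 counts of members moved by over 1.5 times and all 144 named changes kept their call. The count of members higher at 36 h in VCAM cells was 17 with and without the block. Of 135 same-numbered pairs of arrays 27 deviated together by over 0.1. Leaving out dim genes, a trended and robust prior, the mean over probe sets and a fit of only the groups compared gave the same result. In each, no count moved by over 1.5 times and no named change lost its call. Centring the arrays or quantile normalization gave 2 in place of 1 member lower at 36 h in YFP cells, and 3 and 4 named members near the 1.5-fold threshold lost their call.

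By adjusted p alone more members passed. In VCAM cells the counts became 6 lower at 36 h, 10 higher at 60 h and 10 higher at 84 h against QSCs, 1 higher at 60 against 36 h, and 6 higher and 7 lower at 84 against 60 h. In YFP cells they became 5 lower at 36 h, 8 higher and 17 lower at 60 h and 10 higher and 18 lower at 84 h against QSCs, 2 higher at 60 against 36 h, and 9 higher and 6 lower at 84 against 60 h. For YFP against VCAM they were 9 lower in QSCs, 2 higher and 16 lower at 36 h, 7 lower at 60 h, and 10 higher and 2 lower at 84 h. For old against young they were 1 lower in QSCs and 1 at 60 h, and 14 were lower at 60 h against QSCs in old cells. The difference of the 36 h response, YFP minus VCAM, was above 0 for 5.

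With a fold of at least 2 the counts became 1 lower at 36 h and 1 higher and 1 lower at 84 against 60 h in VCAM cells, 5 lower at 60 h against QSCs and 3 higher at 84 against 60 h in YFP cells, and, for YFP against VCAM, 2 higher in QSCs, 1 higher and 0 lower at 60 h and 0 higher at 84 h. Old against young QSCs had 6 higher, the difference of the 60 h response, old minus young, was above 0 for 4 and below 0 for 0, and that of the 36 h response, YFP minus VCAM, was below 0 for 6. In that setting 25 named changes lost their call.

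Leaving out each array in turn, the count of members with a 60 h response difference, old minus young, below 0 ranged from 1 to 2 (1 without young VCAM 60 h array 1 or old QSC array 1), the count lower in YFP cells at 60 h from 1 to 2 (2 without young VCAM 60 h array 2), and the count higher at 84 h from 2 to 4 (2 without young VCAM 84 h array 1). Of the other counts none moved by over 1.5 times, and 14 of the refitted named changes lost their call. No change of direction occurred. Over the 250 bases before the start alone AP-1 occurred in 11.5% of members' windows and PU.1 in 26.9%, and the other 5 motif shares of members were as before. The 3 arrays per group limit the precision.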

Other observations

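The 4 genes of the Ccl21 family, ligands of Ccr7 like Ccl19, share 4 probe sets whose values were identical and which cannot be assigned to one gene. Their log2 level was 9.26 ± 0.08 (SD, n = 3) in young VCAM QSCs, 8.15 ± 0.11 at 36 h, 6.58 at 60 h and 7.09 at 84 h. In the YFP sort it was 8.87, 8.78, 6.79 and 7.36 at the same times, and in old VCAM cells 9.33 at rest and 7.47 at 60 h. The group mean was thus lowest at 60 h in each series. In the YFP sort, however, the arrays of QSCs (8.78 to 8.96) and of 36 h (8.74 to 8.82) overlapped. From 60 to 84 h the Ccl21 means were higher, whereas those of Ccl19 were not. The Ccl19 means were 7.45 and 7.34 in VCAM and 7.31 and 7.07 in YFP cells. Ccl27a and Ccl27b, skin ligands of Ccr10, share 3 probe sets, of which the brightest read 8.41 ± 0.08 in young VCAM QSCs and 7.89 ± 0.02 at 36 h, and 8.34 ± 0.06 and 7.70 ± 0.05 in YFP cells. No test was made on these probe sets.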
